A study of Mus musculus with 71 samples.

Results

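The libraries described here are the 11 MUT p0-p1 libraries, all of the NFIAn fraction, out of 71 in the series. They were chosen by genotype, population and fraction alone, with no measured value, and they cover day 5 (3 libraries), day 7 (3), day 9 (2) and day 11 (3) of a differentiation in culture. The series measured chromatin accessibility in mouse embryonic stem cells that were driven towards ventral spinal cord progenitors, with p0-p1, p2 and pMN cells isolated on days 5, 7, 9 and 11 from MUT and WT cells. Cells were grown with bFGF, then with the GSK3 inhibitor CHIR99021 from day 2, with retinoic acid and the Smoothened agonist SAG from day 3, and with SAG alone from day 5. The assay was CaTS-ATAC, in which cells are fixed, exposed to the transposase Tn5, stained inside the cell for proteins such as SOX2, NKX6.1 and OLIG2, and then sorted. MUT p0-p1 is set beside 11 WT p0-p1 libraries and 11 MUT p2 libraries. WT p0-p1 was NFIAn on days 5, 7 and 9 and NFIAp on day 11, so genotype and fraction change together on the last day and cannot be told apart there. MUT p2 was NFIAn on every day, as all MUT libraries were. Nothing in the labels says which gene is mutated, whether the MUT line is a single clone or whether replicates came from separate cultures. The spread behind the p-values may therefore be technical.

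The p0 and p1 domains are progenitor zones of the ventral neural tube that lie dorsal to p2 and, unlike p2 and pMN, do not make the homeodomain protein NKX6.1. Sonic hedgehog signalling, which SAG switches on through Smoothened, sets out these domains, and progenitors of all of them first produce neurons and later turn to glia. NFIA is a transcription factor that appears in progenitors around that turn. ATAC-seq reads accumulate where nucleosomes leave DNA open, at promoters and enhancers, so a rise in an interval means that more transposase cuts fell there. The deposited intervals carry numbers and neither positions nor gene names. They are named here by number, and the sorted identity of the cells could not be checked against marker genes.

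Values are normalised reads, the reads counted in an interval after division by 1 factor for each library. The 11 libraries held 20034731 to 26491830 reads in intervals, with a median of 23485081. At the median interval, with a mean of 31.8 normalised reads, counting error alone is 17.7%. Genotype labels were checked on intervals 143053 to 143057, a run without reads in most MUT libraries. The run was picked from these data by those labels, so a gap between the genotypes as a whole was fixed. Only single libraries could go against their label. The run held 1 read in all 11 MUT p0-p1 libraries together, against 148 to 264 reads in each of the 11 WT p0-p1 libraries. In 2 libraries of the series, both from day 7 pMN, the reads in this run went against the genotype label, and neither is a library described here. Of the 11 libraries, 10 lay nearest to the mean of their own group. The exception was MUT day 9 replicate 1, whose root mean square distance was 0.41 to WT day 9 p0-p1 and 0.42 to its own group, which without it holds 1 library. Total normalised reads were 24307298 to 25518588 on day 5, 24011276 to 25381593 on day 7, 22451154 to 22585029 on day 9 and 22470094 to 23113345 on day 11. The top 1% of intervals held 17.6% to 18.1% of the signal on day 5, 17.02% to 17.5% on day 7, 16.0% to 16.4% on day 9 and 16.2% to 16.3% on day 11. Counts with libraries set to equal totals or quantile normalised are given with the steps below. Whether the totals or the top 1% share caused changes with day was not tested.

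Accessibility in MUT p0-p1 moved with every step of the course, and the libraries of the 4 days did not overlap. Of the sum of squares over intervals, 86.2% lay between days and 13.8% between replicates. The leading principal component of these 11 libraries, with 67.4% of their variance, ran in the order of the days, with scores of -255 ± 5.05 on day 5, -94.1 ± 7.69 on day 7 (SD, n = 3 each), 122 ± 14.8 on day 9 (SD, n = 2) and 268 ± 26.9 on day 11 (SD, n = 3). The second held 16.3% and set the middle days apart from both ends, at 102 ± 22.4 on day 5, -123 ± 9.73 on day 7, -89.2 ± 2.84 on day 9 and 80.5 ± 10.5 on day 11.

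**Figure D1:**
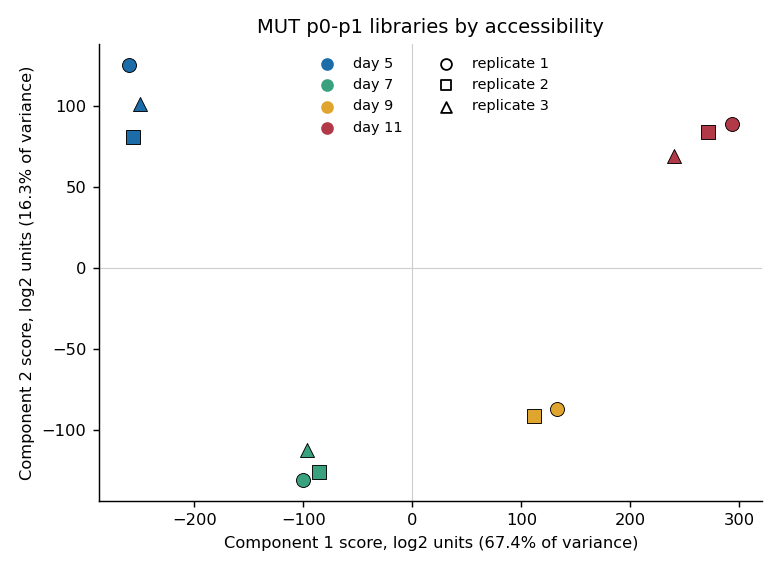
Scores of the 11 MUT p0-p1 libraries on the first (x axis) and second (y axis) principal component of log2(normalised reads + 5), in log2 units, coloured by day with a marker shape per replicate number. Days 5 to 11 run left to right from -255 to 268 on average, and days 7 and 9 lie below 0 on the second component while days 5 and 11 lie above it.

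The steps were of similar length. With the replicate variance subtracted, the root mean square change over all intervals was 0.67 (log2) between days 5 and 7, 0.57 between days 7 and 9 and 0.57 between days 9 and 11, and 1.31 from day 5 to day 11. Single libraries of neighbouring days differed by 0.74 to 0.86 between days 5 and 7, by 0.66 to 0.75 between days 7 and 9 and by 0.62 to 0.76 between days 9 and 11. Libraries of the same day differed by 0.36 to 0.46, so the groups did not overlap in this distance. The typical SD between replicates was 0.30 on day 5, 0.31 on day 7, 0.29 on day 9 and 0.29 on day 11.

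An interval is said to have risen or fallen where the change was at least 1 (log2) and limma's test on log2(normalised reads + 5) passed 0.05 after Benjamini-Hochberg adjustment over the 155734 intervals tested. By limma's F-test over the 4 days, 81406 intervals, 52.3% of all, changed with a range of 1 or more. At the other end, 32302 intervals (20.7%) had the 95% confidence interval of every difference between days within 1 (log2) on either side of 0. Their median level was 129.7 normalised reads, against 31.8 over all intervals, and since strong intervals have narrower confidence intervals the criterion itself favours them. In a bulk library, fewer cells with an open interval and less opening in each cell cannot be told apart.

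Calls in the step to day 7 were mostly gains. These were 67.4% of the calls with the deposited scaling, 70.3% with libraries set to equal totals and 59.0% with quantile normalization. Over all intervals the median change was -0.0095 (log2), and 49.3% were above 0. On day 7, 15430 intervals (9.91%) were higher than on day 5 and 7459 (4.79%) were lower, and 2123 of the gains and 407 of the losses reached a change of 2 (log2). The median rise was 1.38 and the median fall -1.25. Called gains were more frequent in stronger intervals. With intervals cut into 4 equal groups by mean level, 4.95% of the weakest group rose, against 13.2% and 12% of the 2 strongest. Of the weakest 4.4% fell, and of the strongest 2.37%. The groups were cut by the mean of these same libraries, and the 5 added before log2 shrinks changes in weak intervals. How far this sets the shares was not tested. Intervals with a mean level below 5 normalised reads numbered 18611 on day 5, 11897 on day 7, 9108 on day 9 and 10767 on day 11.

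**Figure D2:**
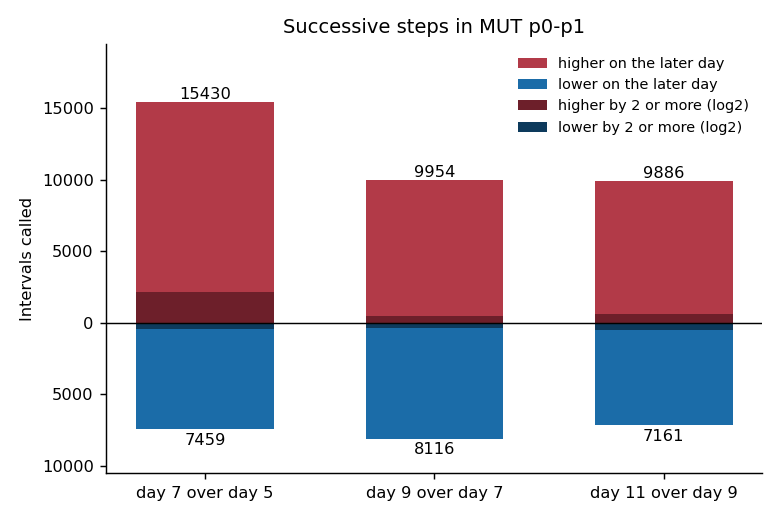
Number of intervals called higher (above 0) and lower (below 0) on the later day of each step in MUT p0-p1, with darker bars for those that changed by at least 2 (log2). The first step has 15430 gains and 7459 losses, the later steps 9954 and 8116, and 9886 and 7161.

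Among the largest gains of this step, Interval_3159 had 349, 330 and 333 normalised reads on day 7, against 9.09, 4.91 and 18.9 on day 5. Intervals within the course are named only if libraries of the days compared did not overlap, so that separation is part of the choice. The level of Interval_3159 held, with 397 and 479 on day 9 and 384 to 425 on day 11. Its change was 4.52 ± 0.18 (log2, SE; limma, adjusted p = 1.7e-30). Interval_120965 had 390, 390 and 231 on day 7, against 12.5, 9.81 and 10.5 on day 5, a change of 4.39 ± 0.22 (limma, adjusted p = 2.38e-25). It was highest on day 9, at 462 and 560, and lower again on day 11, at 174 to 295. Interval_11586 had 487 to 787 on day 7, against 16.8 to 40.2 on day 5, with 582 and 673 on day 9, inside the day 7 range, and 247 to 307 on day 11. Interval_149763 had 242 to 304 on day 7, against 8.83 to 10.5 on day 5.

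The largest losses of the first step were close to complete. Interval_42955 had 26.6, 25.5 and 26.4 normalised reads on day 7, against 399, 702 and 814 on day 5, a change of -4.31 ± 0.30 (limma, adjusted p = 1.17e-18). It stayed down, at 8.66 and 15.4 on day 9 and 6.27 to 9.41 on day 11. Interval_136769 had 9.97, 10.6 and 13.2 on day 7, against 191, 267 and 247 on day 5 (-3.87 ± 0.30; limma, adjusted p = 3.49e-17). In both intervals the later libraries were lower still. Interval_133238 had 5.31 to 18.8 on day 7, against 182 to 283 on day 5, and Interval_134476 had 3.18 to 5.99, against 118 to 134.

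The second step was close to balanced. On day 9, 9954 intervals (6.39%) were higher than on day 7 and 8116 (5.21%) were lower, with 508 and 354 changes of at least 2 (log2). That balance moved with the scaling: gains were 55.1% of the calls with the deposited scaling and 66.8% when libraries were set to equal totals, while quantile normalization gave slightly more losses than gains, at 49.8% gains. Leaving out 1 library in turn gave between 14906 and 19602 calls, the lowest number without day 9 replicate 1. For this step the median change over the whole table was 0.10 with equal totals and 0.0059 with the deposited scaling, and for day 11 against day 5 it was 0.16 and 0.053.

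The largest gains of the second step came from intervals with few reads on days 5 and 7. Interval_64980 had 290 and 183 normalised reads on day 9, against 12.2, 15.9 and 12 on day 7 (3.69 ± 0.33; limma, adjusted p = 3.6e-13). It had 1.96 to 4.54 on day 5 and 573 to 601 on day 11, the largest gain between the ends of the course among the intervals named by the rule (6.26 ± 0.30; limma, adjusted p = 6.5e-28). Interval_35895 had 414 and 255 on day 9, against 25.5, 24.4 and 20.4 on day 7, and 385 to 485 on day 11. Interval_70205 had 272 and 167 on day 9, against 10.8 to 24.4 on day 7, and Interval_132175 had 220 and 142, against 9.97 to 21.6. In each of these 4 intervals day 9 replicate 1 was the higher library and replicate 2 the lower.

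The falls of the second step included intervals that had been open on both earlier days. Interval_57839 had 23.1 and 40.8 normalised reads on day 9, against 643, 535 and 614 on day 7 (-4.07 ± 0.32; limma, adjusted p = 2.26e-15). On day 5 it held 548 to 582, and on day 11 3.58 to 4.48. Interval_71928 had 31.7 and 42.6 on day 9, against 517 to 649 on day 7, and Interval_60134 had 25 and 47.1, against 388 to 548. On day 5 these intervals had held 671 to 842 and 427 to 532. Interval_9045 was a transient: 5.77 and 18.1 on day 9, against 402, 342 and 261 on day 7 (-4.41 ± 0.36; limma, adjusted p = 1.55e-14), with 33.7 to 70.6 on day 5 and 0 to 2.69 on day 11.

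In the third step 9886 intervals (6.35%) were higher and 7161 (4.6%) were lower on day 11 than on day 9, with 626 and 521 changes of at least 2 (log2). Gains were 58.0% of the calls with the deposited scaling, 56.4% with equal totals and 52.5% with quantile normalization. With 1 rather than 5 added before log2 they were 51.8%. Leaving out 1 library in turn gave between 12869 and 19790 calls in all. The fewest came without day 9 replicate 2 and the most without day 11 replicate 3. By the same 4 groups of mean level, from weakest to strongest, 6.92%, 7.32%, 7.83% and 3.32% rose. In that order 1.82%, 4.15%, 6.21% and 6.21% fell. Called gains were thus least frequent among the strongest intervals and called losses least frequent among the weakest. The weakest group had means up to 15.1 normalised reads, where the 5 added before log2 shrinks changes. In that group 4.4% fell in the first step and 2.61% in the second. How far the added 5 sets these shares was not tested.

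Interval_59257 opened in this step, with 255, 252 and 219 normalised reads on day 11, against 13.5 and 9.06 on day 9 (3.94 ± 0.40; limma, adjusted p = 2.34e-11), and 0 to 5.54 before that. Interval_123603 had 155, 159 and 102 on day 11, against 3.85 and 7.25 on day 9 (3.76 ± 0.40; limma, adjusted p = 1.01e-10). Its day 9 libraries lay within the day 7 range of 3.32 to 8.39. Interval_139439 had 260 to 393 on day 11, against 17.2 and 23.1 on day 9, and Interval_116039 had 275 to 440, against 22.6 and 23.1. In all 4 intervals every day 11 library lay above all 8 earlier libraries.

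Each of the 4 largest falls of the third step came from an interval whose highest level was on day 7. Interval_36121 had 6.85, 9.85 and 12.5 normalised reads on day 11, against 366 and 359 on day 9 (-4.66 ± 0.41; limma, adjusted p = 1.64e-13), with 706 to 897 on day 7 and 356 to 561 on day 5. Interval_127406, the strongest of them, had 25.7, 21.5 and 16.1 on day 11, against 417 and 643 on day 9 (-4.34 ± 0.29; limma, adjusted p = 1.16e-17). Its day 7 libraries held 1778 to 1895 and its day 5 libraries 1264 to 1614. Interval_65271 had 8.95 to 17.1 on day 11, against 263 and 272 on day 9, and Interval_103946 had 17.9 to 23.3, against 326 and 412. On day 7 they had held 493 to 678 and 829 to 1050.

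**Figure D3:**
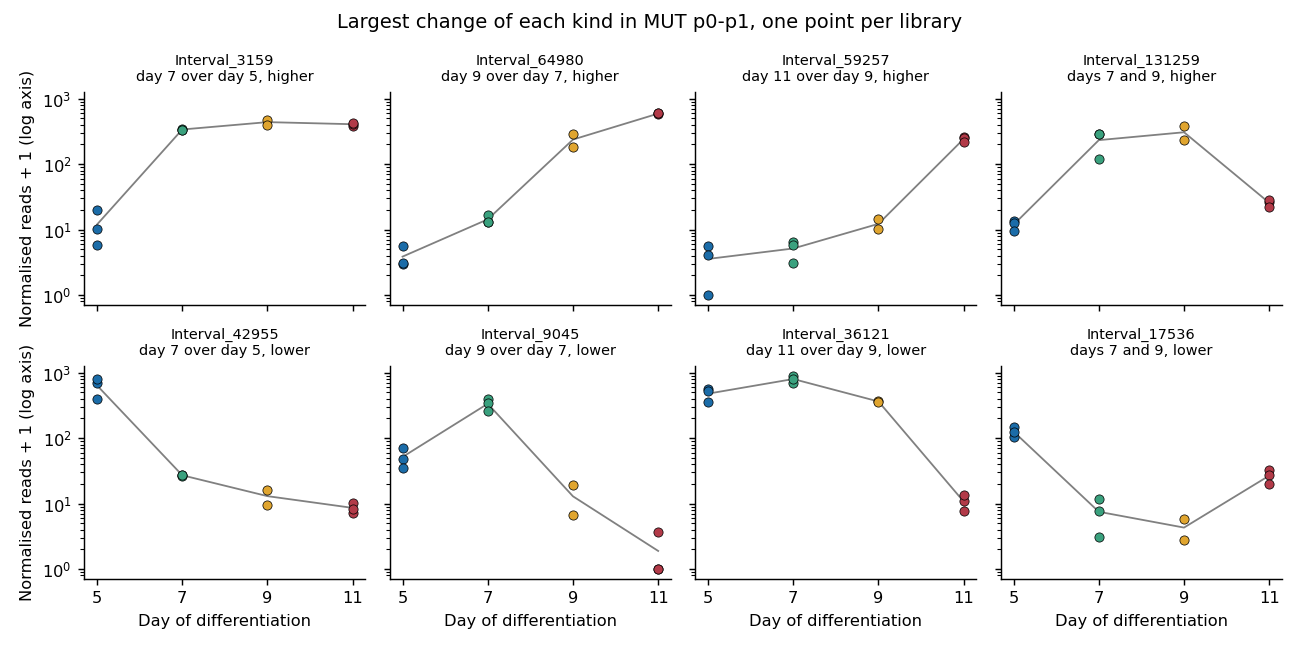
Normalised reads plus 1 (y axis, log scale) by day (x axis) in the interval with the largest named rise or fall of each step and of days 7 and 9 against days 5 and 11, with 1 point per MUT p0-p1 library and a line through the day means. Interval_3159 is above 330 from day 7 on, Interval_36121 falls to between 6.85 and 12.5 on day 11, and Interval_131259 is high on days 7 and 9 and low at both ends.

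The first and last steps share no library, so their lists can be set side by side. Of the 15430 intervals that rose in the first step, 2567 fell in the third, which is 16.6% of the first list and 35.8% of the 7161 last-step falls, where 4.6% of all intervals fell. Only 375 of them (2.43%) rose again, where 6.35% of all intervals rose. Of the 7459 intervals that fell in the first step, 327 (4.38%) rose in the third, beside 6.35% of all intervals, and 160 (2.15%) fell further. The median last-step change was -0.30 (interquartile range -0.78 to 0.13) in first-step gains and -0.064 (-0.36 to 0.28) in first-step losses, against 0.016 over all intervals.

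Followed over the course, the median first-step gain was 1.42 ± 0.028 above day 5 on day 7 (SD over libraries, n = 3), 1.80 ± 0.027 on day 9 (n = 2) and 1.51 ± 0.068 on day 11 (n = 3), all in log2. First-step losses went to -1.29 ± 0.062, -1.73 ± 0.052 and -1.80 ± 0.011 on the same days. Second-step gains had reached 0.61 ± 0.050 by day 7 and went on to 1.95 ± 0.024 on day 9 and 2.46 ± 0.20 on day 11. Second-step losses stood at -0.16 ± 0.038 on day 7 and -2.01 ± 0.034 on day 11. Third-step gains had hardly moved by day 7 (0.065 ± 0.051), while last-step losses were 0.65 ± 0.039 above their day 5 level on day 7 and 1.30 ± 0.070 below it on day 11. These sets were chosen on the same libraries, so their values are a description.

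**Figure D4:**
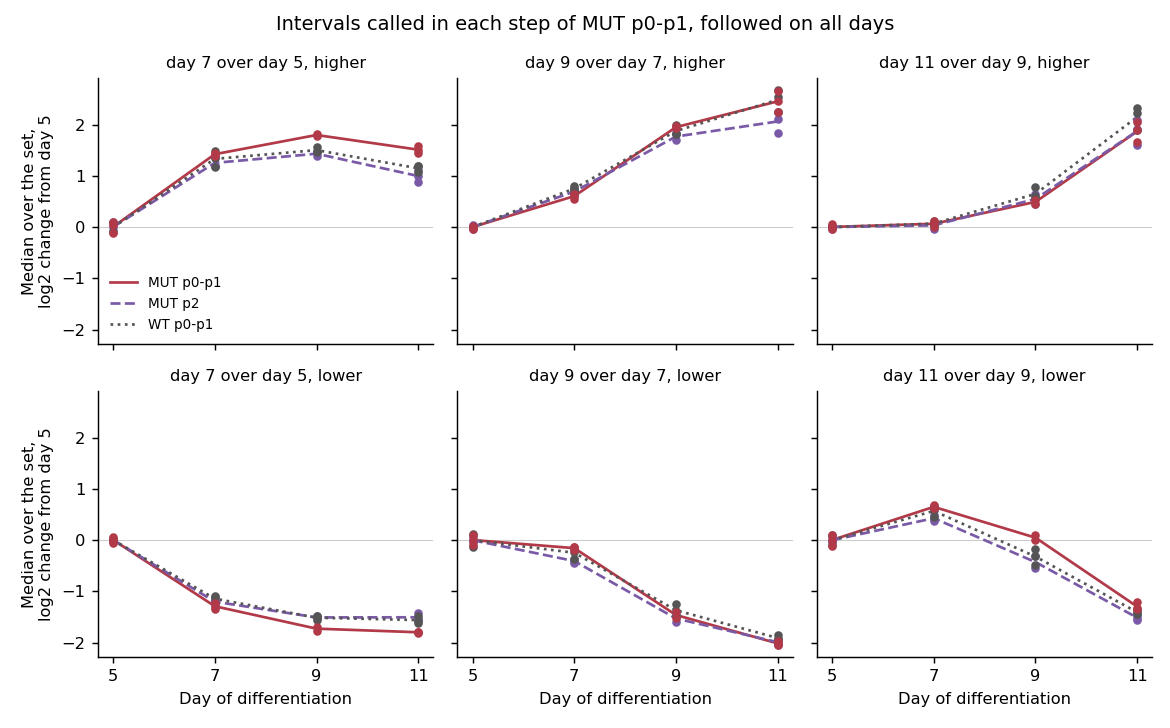
Median log2 change from the day 5 mean (y axis) by day (x axis) over the intervals called higher (top) or lower (bottom) in each step of MUT p0-p1, shown for MUT p0-p1, MUT p2 and WT p0-p1 with 1 point per library and lines through the day means. In first-step gains the MUT p0-p1 libraries reach 1.78 to 1.82 on day 9 and 1.45 to 1.58 on day 11, and the sets chosen in MUT p0-p1 move the same way in the other 2 series.

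From day 5 to day 11, 64594 intervals (41.5%) changed: 37560 (24.1%) rose and 27034 (17.4%) fell. Gains were 58.1% of these calls, 63.2% with equal totals and 50.1% with quantile normalization, so the excess of gains depends on the scaling. The median interval that rose had covered 30.3% of its change by day 7 and 70.4% by day 9, and the median one that fell 34.7% and 74.2%. No single step dominated the gains: the first step was the largest in 34.2% of them, the second in 32.2% and the third in 33.6%. Among the losses the third step was the largest in fewer, at 22.3%, against 39.9% for the first and 37.8% for the second. All 3 steps went the same way in 60.6% of the gains and 61.8% of the losses. Of the intervals that rose, 14.9% were lower on day 7 than on day 5 and 19.6% were higher on day 9 than on day 11.

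The steepest courses among named intervals show both timings. Interval_69652 held 4.54 to 7.36 normalised reads on day 5, 89.8 to 136 on day 7, 419 and 563 on day 9 and 712 to 751 on day 11 (6.04 ± 0.17; limma, adjusted p = 1.44e-38). Interval_101017 held 9.09 to 11.8, then 33.6 to 63.2, then 249 and 395, and 885 to 1069 on day 11 (5.97 ± 0.21; limma, adjusted p = 4.44e-34). Both rose by at least 1 (log2) in the first and in the second step. Interval_103056 fell through 767 to 781, 381 to 402, 30.8 and 59.8, and 4.48 to 7.17 on the 4 days (-6.17 ± 0.24; limma, adjusted p = 7.39e-32). Interval_49042 held 687 to 834 on day 5, 244 to 316 on day 7, 35.6 and 80.6 on day 9 and 5.37 to 8.06 on day 11. In these 4 intervals no libraries of different days overlapped, which the choice had fixed only for days 5 and 11.

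By level, 1166 intervals passed from a mean below 5 normalised reads on day 5 to at least 50 on day 11, and 490 went the other way. The intervals that opened had median levels of 3.50, 11.5, 39.4 and 68.2 on the 4 days, and 25 of them (2.14%) were at 50 or more by day 7 and 422 (36.2%) by day 9. The intervals that closed had medians of 69.9, 33.3, 9.64 and 3.82. Of these, 6 (1.22%) were below 5 by day 7 and 67 (13.7%) by day 9.

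Days 7 and 9 together differed from days 5 and 11 together in 9342 intervals, of which 7221 (4.64%) were higher on the middle days and 2121 (1.36%) lower. Interval_131259 had 291, 287 and 117 normalised reads on day 7 and 377 and 236 on day 9, against 12.5, 11.8 and 8.41 on day 5 and 25.7, 26.9 and 21.5 on day 11 (3.58 ± 0.23; limma, adjusted p = 7.52e-20). Separation of the 5 middle libraries from the 6 outer ones was required for naming. Interval_34366 had 191 to 371 on the middle days, against 7.7 to 50 at the ends, and Interval_66884 had 59.6 to 287, against 1.71 to 27.5. Interval_17536 was the reverse, with 1.81 to 10.8 on the middle days, against 105 to 148 on day 5 and 18.8 to 31.7 on day 11 (-2.73 ± 0.21; limma, adjusted p = 2.14e-16). Interval_33688 was also lower on the middle days than at either end but ended far above its start. It had 19.9 to 71.6 on the middle days, against 93.1 to 174 on day 5 and 696 to 722 on day 11. Interval_12504 had 14.4 to 25.4 on the middle days, against 62.8 to 110 on day 5 and 209 to 277 on day 11.

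Called intervals lay beside each other in the numbering more often than the background share. After an interval that rose in the first step, the next number had risen too in 19.1% of cases, against 9.91% of all intervals, and after a fall it had fallen in 10.3%, against 4.79%. Intervals 90814 to 90826 all rose in the first step, 13 in a row, by 1.00 to 2.58 (log2). Between the ends of the course 15 in a row rose, numbers 65683 to 65697, with a median change of 2.13, and 13 in a row fell, numbers 142767 to 142779, with a median of -2.02. The files do not say how numbers follow the genome. The 142767 run, Interval_136769, Interval_139439, Interval_139935 and Interval_143211 lie in intervals 135001 to 144000, 9 windows of 1000 where replicates of a day differ by a shared shift. That shift was -0.087, 0.026 and 0.074 (log2) in replicates 1, 2 and 3 on day 5. Windows were chosen where replicate 3 (replicate 2 on day 9) lay at least 0.1 above replicate 1 on days 5, 7 and 9. The order of these replicates on those days was thus fixed by the choice. On day 11, which did not enter it, the shift was -0.015, -0.0073 and 0.024 in replicates 1, 2 and 3. No window of any MUT p0-p1 library was shifted by more than 0.13. Calls made up 13.6% of these intervals in the first step, 10.3% in the second and 10.2% in the third, against 14.7%, 11.6% and 10.9% of all intervals.

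The comparison with WT p0-p1 asks whether each step itself differed by genotype. In the first step no interval differed (limma), 5576 (3.58%) passed an unadjusted p of 0.05, and edgeR on the recovered reads called 0 as well. In 50.8% of the intervals the 95% confidence interval of the difference lay within 1 (log2) of 0, so a difference of that size is not excluded in the rest. Of the MUT gains, 11289 were also called in WT p0-p1, which is 73.2% of the 15430 in MUT and 72.9% of the 15486 in WT (9.94% of all intervals). Of the losses, 4608 were shared, 61.8% of the MUT list and 60.7% of the WT list, which held 4.88% of all intervals. No interval was called in opposite directions. Across the 155734 intervals the first-step changes of the genotypes had a Pearson r of 0.88, a description over intervals that share libraries.

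In the second step 5 intervals (0.00321%) differed, all with a lower step in MUT. Interval_143211 and Interval_133000 are named by the rule and the other 3, with lower levels or smaller differences, were picked after their values were seen. Interval_89987 had 3.85 and 6.34 normalised reads on day 9 in MUT, against 78, 54.3 and 36.5 in WT, where day 7 levels were 4.79 to 14.9 in MUT and 3.19 to 7.19 in WT (-2.98 ± 0.47; limma, adjusted p = 0.00164). Interval_103717 had 10.6 and 11.8 on day 9 in MUT, against 164, 71.5 and 81 in WT (-2.57 ± 0.38; limma, adjusted p = 0.000608). Interval_143211 had 17.3 and 22.6, against 195, 79.7 and 101 (-2.25 ± 0.36; limma, adjusted p = 0.00232). The MUT libraries of day 9 did not overlap the WT ones in any of these.

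The remaining pair differed by less. Interval_133000 had 76 and 57.1 on day 9 in MUT, against 166, 126 and 145 in WT (-1.45 ± 0.27; limma, adjusted p = 0.0279), and Interval_71714 had 58.7 and 58.9, against 154, 119 and 115 (-1.41 ± 0.26; limma, adjusted p = 0.0279). WT p0-p1 was NFIAn on both days of this step. On day 11 Interval_103717 had 36.7 to 68.5 in MUT and 475 to 515 in WT, and Interval_143211 had 69.9 to 120 in MUT and 524 to 655 in WT, so both rose in MUT in the third step (1.81 and 2.01; limma, adjusted p = 1.51e-06 and 5.65e-08). Interval_89987 stayed at 8.96 to 11.1 in MUT, against 347 to 411 in WT. The number of second-step differences was 2 without MUT day 9 replicate 1, 2 without WT day 9 replicate 1 and 3 without MUT day 7 replicate 1. With 1 of the 11 libraries of this comparison left out in turn, Interval_133000 lost its call in 7 fits (limma, adjusted p = 0.066 to 0.913) and Interval_143211 in 2 (0.0893 and 0.155), with differences of -1.64 to -1.25 and -2.51 to -1.89. A fit of only the groups compared and edgeR each called 0. The second step otherwise shared 5650 gains with WT, 56.8% of the MUT list and 66% of the WT list (5.5% of all intervals). It shared 4999 losses, 61.6% of the MUT list and 61% of the WT list (5.27% of all).

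The last step differed between MUT and WT p0-p1 in 5719 intervals (3.67%), with a lower step in MUT in 5600 (3.6%) and a higher one in 119 (0.0764%). In the 5600 intervals the MUT libraries stood at 0.10 ± 0.037 (log2) above day 5 on day 9 (SD, n = 2) and at 0.23 ± 0.057 on day 11 (n = 3), with single day 11 libraries at 0.16 to 0.26. WT libraries stood at 0.11 ± 0.048 on day 9 (n = 3) and at 2.17 ± 0.26 on day 11 (n = 3), with single libraries at 1.88 to 2.39. Of the 5600, 406 (7.25%) rose in MUT in the third step, near the 6.35% of all intervals. In WT 5163 (92.2%) of them rose, against 14.3% of all. The set was chosen on this difference, so these counts are a description. Without MUT day 9 replicate 2 the third-step differences numbered 3721 in all. Library quality weights gave 11519, of which 12.4% were higher in MUT, against 2.08% of the 5719, while edgeR gave 3753, a pseudocount of 1 gave 3502 and a mean of at least 30 gave 2343.

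**Figure D5:**
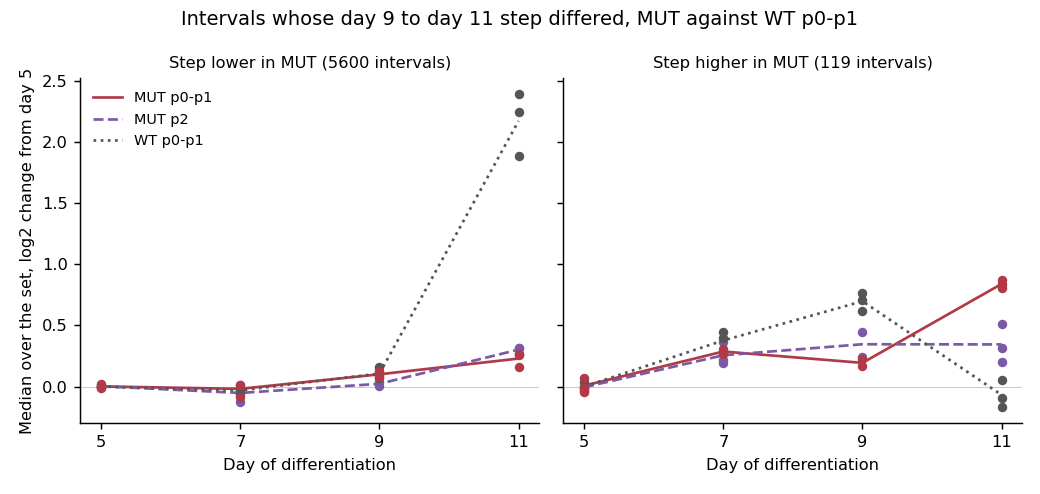
Median log2 change from the day 5 mean (y axis) by day (x axis) over the 5600 intervals whose day 9 to day 11 step was lower in MUT than in WT p0-p1 (left) and the 119 whose step was higher (right), for MUT p0-p1, MUT p2 and WT p0-p1, with 1 point per library and lines through the day means. On the left, day 11 libraries lie at 0.16 to 0.26 in MUT p0-p1 and at 1.88 to 2.39 in WT p0-p1; WT is NFIAp on that day and NFIAn before.

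In Interval_130623 the day 11 libraries held 63.3, 68 and 43.9 normalised reads in MUT, against 1346, 1629 and 1281 in WT, and the day 9 libraries 46.2 and 57.1 in MUT, against 62, 55.2 and 48.4 in WT. The genotypes overlapped on day 9 and were far apart on day 11, and the steps differed by -4.41 ± 0.51 (limma, adjusted p = 7.88e-09). Interval_42834 moved in opposite directions: 8.56, 9.85 and 13.4 on day 11 in MUT, against 110, 109 and 101 in WT, where day 9 levels were 64.4 and 77 in MUT and 31, 48 and 36.5 in WT (-3.66 ± 0.30; limma, adjusted p = 9.32e-14). Interval_127406, among the largest last-step losses in MUT, also fell more there than in WT (-1.40 ± 0.39; limma, adjusted p = 0.023).

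Among the 119 intervals with a higher step in MUT, 52 (43.7%) fell in WT in the third step, against 5.34% of all intervals. In MUT 3 (2.52%) fell, against 4.6% of all. In the same set 25 (21%) rose in MUT and 3 (2.52%) in WT, against 6.35% and 14.3% of all. The set was chosen on this difference, so these counts are a description. Interval_67748 had 193, 191 and 110 on day 11 in MUT, against 72.2, 92.5 and 48.1 in WT, where day 9 levels were 62.5 to 79.8 in MUT and 93.3 to 112 in WT, also without overlap (1.62 ± 0.38; limma, adjusted p = 0.00351), a call that was lost without MUT day 9 replicate 2 (limma, adjusted p = 0.0582). Interval_139935 had 35.8 to 45.4 on day 11 in MUT, against 15.4 to 21.4 in WT, where day 9 levels were 41.4 to 45.3 in MUT and 59.2 to 66.2 in WT (1.46 ± 0.31; limma, adjusted p = 0.000865).

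Most gains that MUT made in the third step were made in WT too. Of the 9886, 7329 were called in WT, which is 74.1% of the MUT list and 32.9% of the 22295 intervals that rose in WT, 14.3% of all. Of the losses, 4376 were shared, 61.1% of the MUT list and 52.7% of the 8310 in WT (5.34% of all). Over intervals, the third-step changes of the genotypes had a Pearson r of 0.74, against 0.88 and 0.84 in the first and second steps.

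The 5600 intervals were chosen on the p0-p1 contrast, and p2 libraries entered that choice only through the variance shared by all libraries in the fit. In p2, the third step was lower in MUT than in WT by a median of -2.002 (log2; interquartile range -2.67 to -1.40), and 97.9% of the 5600 had a difference below 0, against 52.2% of all intervals. In the 119 intervals the p2 median was 0.47 (0.16 to 0.81), and 84% were above 0, against 47.8% of all intervals. WT p2 also changed from NFIAn to NFIAp in this step. MUT p0-p1 and p2 libraries of the same day and replicate number deviated together, with correlations of residuals of 0.059 to 0.33 over 11 pairs, so they are not fully separate samples.

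Set against p2 of the same genotype, the number of intervals in which the steps of MUT p0-p1 differed depended on whether libraries of the same day and replicate number were treated as pairs. Unpaired, 202 differed in the first step (0.13%), with a higher step in p0-p1 in 136 (0.0873%) and a lower one in 66 (0.0424%). With the replicate number within each genotype and day as a block, a fit chosen after the data were seen, limma called 1357, 30 and 2243 intervals in the first, second and last step, 57.5%, 43.3% and 51.8% of them higher in p0-p1. The correlation of same-numbered libraries was 0.153 or more in all 6 pairs of days 5 and 7 and was below 0.1 in 1 pair of day 11, and the labels do not say that a number marks a shared culture. Quantile normalization lowered the share of higher steps to 52.1% of the calls, against 67.3% as deposited, and the count was between 84 and 215 when 1 library was left out, with 84 without MUT day 7 p0-p1 replicate 2 and also without MUT day 5 p2 replicate 2. It was 94 without MUT day 5 p0-p1 replicate 1, 98 without MUT day 7 p2 replicate 1, 123 without MUT day 5 p2 replicate 3 or MUT day 7 p2 replicate 2, and 127 without MUT day 5 p0-p1 replicate 3. In the 136 intervals the median first-step change was 1.74 in p0-p1 and 0.21 in p2, and in the 66 it was 0.21 in p0-p1 and 1.78 in p2.

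Interval_85510 had 188, 241 and 207 normalised reads on day 7 and 36.4, 36.3 and 28.4 on day 5 in p0-p1, and 134, 157 and 160 on day 7 and 99.9, 136 and 133 on day 5 in p2 (2.20 ± 0.29; limma, adjusted p = 1.63e-05). By day 11 it was at 261 to 332 in p0-p1, against 68.8 to 93.5 in p2. Interval_59575 crossed over, with 69.8 to 113 on day 7 in p0-p1, against 27.4 to 53.4 in p2, and 15.9 to 25.5 on day 5 in p0-p1, against 49.4 to 82 in p2 (2.41 ± 0.35; limma, adjusted p = 0.000111). Interval_3159, the largest first-step gain named above, also rose more in p0-p1 than in p2, by 1.15 ± 0.25 (limma, adjusted p = 0.0277). Its day 7 means were alike, at 337 in p0-p1 and 334 in p2, and the difference lay in low day 5 means of 11.0 and 27.8. On day 11 the means were 407 and 466. Interval_102518 had 7.76 to 20.4 on day 7 in p0-p1, against 37.2 to 50.3 in p2, and 7.85 to 28.4 on day 5, against 0 to 8.2 (-2.57 ± 0.48; limma, adjusted p = 0.00651). By day 11 its p0-p1 libraries had reached 87.8 to 111, within the 78 to 139 of p2. Interval_52068 had 17.7 to 27.6 on day 7 in p0-p1, against 67.1 to 88.6 in p2 (-1.81 ± 0.35; limma, adjusted p = 0.00861).

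In these intervals the WT libraries, which entered the choice only through the shared variance, lay on the same side. In WT the first step was higher in p0-p1 than in p2 by a median of 1.06 (log2; interquartile range 0.82 to 1.43) in the 136 intervals, and above 0 in 97.1% of them, against 51.9% of all intervals. In the 66 intervals the WT median was -0.95 (-1.30 to -0.66), and 97% were below 0, against 48.1% of all.

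Without the block, no interval differed between p0-p1 and p2 in the second step (limma), where 6885 (4.42%) passed an unadjusted p of 0.05 and edgeR called 0. In the third step 67 differed (0.043%), 35 (0.0225%) with a higher step in p0-p1 and 32 (0.0205%) with a lower one. Higher steps in p0-p1 were 52.2% of these calls with the deposited scaling and 41.3% with equal totals. This count rests on single libraries: it was 0 without MUT day 9 p2 replicate 2, 1 without MUT day 11 p0-p1 replicate 1, 2 without MUT day 9 p0-p1 replicate 1 or MUT day 11 p2 replicate 1, and 3 without MUT day 9 p0-p1 replicate 2. It was 11 without MUT day 11 p2 replicate 2, 16 without MUT day 11 p0-p1 replicate 2, 25 without MUT day 11 p2 replicate 3 and 142 without MUT day 9 p2 replicate 1.

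Interval_44185 opened in p0-p1 on day 11, at 113, 103 and 130 normalised reads, against 5.03, 10.5 and 5.5 in p2, where day 9 levels were 6.34 and 8.66 in p0-p1 and 2.85 and 6.51 in p2 (2.96 ± 0.44; limma, adjusted p = 0.000858). Interval_2971 had 178, 153 and 260 on day 11 in p0-p1, against 9.05, 10.5 and 16.5 in p2 (2.20 ± 0.41; limma, adjusted p = 0.0226). Both were separate between the populations on day 11 in every library. Interval_2971 was already so on days 5, 7 and 9, with 32.6 and 35.6 on day 9 in p0-p1, against 8.37 and 12.4 in p2. Interval_101321 had 59, 58.2 and 64.5 on day 11 in p0-p1, against 202, 204 and 175 in p2, from 109 and 117 on day 9 in p0-p1, against 100 and 109 in p2 (-1.70 ± 0.32; limma, adjusted p = 0.0244). Interval_149279 had 24.2 to 30.4 on day 11 in p0-p1, against 61.1 to 80.7 in p2 (-1.79 ± 0.37; limma, adjusted p = 0.0371). With 1 of the 10 libraries left out in turn, Interval_44185 lost its call without MUT day 9 p2 replicate 2 (limma, adjusted p = 0.0951), Interval_2971 and Interval_101321 lost it in 7 fits each and Interval_149279 in all 10 (highest limma adjusted p 0.115, 0.263 and 0.36), while the differences kept their direction. In WT libraries the third step differed between the populations in the same direction in 34 of the 35 intervals, against 47.5% of all intervals. It did so in all 32 of the others, against 52.5% of all. The WT medians were 1.20 and -1.22 (log2). Both WT populations passed from NFIAn to NFIAp in this step, while MUT stayed NFIAn.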

How the data were processed

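The authors deposited 1 table of signal values, reads per interval divided by 1 size factor per library. Dividing each column by its smallest value above 0 returned whole reads within a tolerance of 0.01. The genome build was mm10 per the submitters' processing notes; aligner, peak caller and counting tool are not given in the sources used here. The 11 libraries held 20034731 to 26491830 reads in intervals. Counting error covers reads, which are not all independent molecules.

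Groups came from the labels. In R 4.3.3, limma 3.58.1 was fitted once to log2(value + 5) of all 71 libraries, with a mean for each of the 26 groups, a trend of variance on level and 45 residual degrees of freedom. The test covered the 155734 of 155738 intervals that reached 10 in 2 or more libraries. Comparisons were the 3 steps, both ends, any day, the middle days, and each step against WT p0-p1 and MUT p2. Members and lists were chosen with earlier results of these data known. Named intervals were the called ones with the largest changes in each direction (4 a step, 3 for the ends and the middle days, 2 for the step differences), at or above the median level and, within MUT p0-p1, with no overlap between libraries.

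Alternatives were pseudocounts of 1 and 20, no filter or a mean of at least 30, quantile normalization, equal totals, only the groups compared, library quality weights, a replicate block over all libraries or, added after the data were seen, within genotype and day, window medians removed, edgeR 4.0.16 on the recovered reads, libraries against their labels left out, and each library left out in turn. The test was checked on simulated counts. Figures used matplotlib 3.10.9 in Python 3.11.15.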

Additional observations from a re-analysis of the deposited data

Results flagged for a closer look

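The step itself was tested for a difference between groups. Listed here are 24 results, first counts of intervals and then single intervals. Against WT p0-p1, the second step differed in 5 intervals and the third in 5719. Against MUT p2, the first step differed in 202 intervals and the third in 67.

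The single intervals listed are only those named above that passed the same tests, not all that passed. Values are the log2 difference of the steps, MUT minus WT or p0-p1 minus p2. For the second step against WT these were Interval_89987 (-2.98), Interval_103717 (-2.57), Interval_143211 (-2.25), Interval_133000 (-1.45) and Interval_71714 (-1.41). For the third step against WT they were Interval_130623 (-4.41), Interval_42834 (-3.66), Interval_89987 (-2.12), Interval_127406 (-1.40), Interval_67748 (1.62) and Interval_139935 (1.46). Interval_89987 thus differed in both steps.

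For the first step against p2 they were Interval_102518 (-2.57), Interval_52068 (-1.81), Interval_59575 (2.41), Interval_85510 (2.20) and Interval_3159 (1.15). For the third step against p2 they were Interval_149279 (-1.79), Interval_101321 (-1.70), Interval_2971 (2.20) and Interval_44185 (2.96).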

How the results depend on the processing

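None of the alternatives run reversed the direction of a named interval. Counts of calls moved past 1.5 times as follows. With a pseudocount of 20, the steps gave 9510, 6583 and 6661 calls in order, the ends 37309, any day 46761, the middle days 3342, the first step against WT 1, and the second and last steps against p2 10 and 515. With a pseudocount of 1, the middle days gave 16276, the first and last steps against WT 1 and 3502, and the third step against p2 8. With a mean of at least 30, which tests fewer intervals, the steps gave 12850, 10098 and 9673, the ends 31911, any day 39168, the middle days 6125 and the third step against WT 2343. Library quality weights gave 14 and 11519 for the second and last steps against WT, and 641, 2 and 1677 for the steps against p2. The edgeR test gave 17096 for the middle days, 0 and 3753 for the second and last steps against WT and 109 for the first step against p2. Only the groups compared gave 0 for the second step against WT and 8 for the last against p2. Quantile normalization gave 332 and 205 for the first and last steps against p2. The cause of these moves was not tested, apart from the fewer intervals named.

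Leaving out 1 library in turn gave 0 to 1, 2 to 6 and 3721 to 7904 calls for the steps against WT and 84 to 215, 0 to 0 and 0 to 142 for those against p2. The replicate block gave 11 for the second step against WT and 349 and 162 for the first and last steps against p2. Across days, MUT p0-p1 libraries sharing a replicate number had a mean correlation of residuals of 0.0024, over 0.1 in 2 of 15 pairs, and 6 of 11 libraries correlated best with their own number. By this measure the numbers do not pair the days. The shift in intervals 135001 to 144000 cannot decide this, since its order was fixed by the choice of windows on every day but day 11. On day 11 it was -0.015, -0.0073 and 0.024 (log2) in replicates 1, 2 and 3. With the number as a block within genotype and day, chosen after the data were seen, the steps against p2 gave 1357, 30 and 2243.

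All 36 named results within the MUT p0-p1 course kept their call in the 661 fits run, and the 14 step differences named by the rule kept it in 280 and lost it in 49. No setting was left out. Replicates of 2 or 3 libraries and counts near the pseudocount limit what could be detected in weak intervals.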
